A study of Mus musculus with 250 samples.

Results

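The tetraspanin genes were chosen by name. They are the rows of the count table called Tspan followed by a number, together with Cd9, Cd37, Cd53, Cd63, Cd81, Cd82 and Cd151, which made 27 of the 24490 gene rows. Their levels were read in 250 single cells titled astrocytes, which were sorted from the brains of adult C57BL/6 mice of about 3 months and made into full-length cDNA libraries with the Smart-seq2 method. Every cell came from the same genotype, SM22-Cre;Rosa26-stop-tdTomato, in which Cre recombinase under the promoter of the smooth muscle gene Tagln (SM22) turns on a red fluorescent protein. No other genotype, treatment or age was compared here. The sources used here do not give the sorting gate or the number of animals, so the cells form 1 sample, and every value below is a description without a test. The cell names start with Brain.VSMC3 (88 cells, plate 3 below) or Brain.VSMC2 (162 cells, plate 2), and these prefixes are read as sorting plates and as technical batches. Whether the plates hold different animals is not given, so plate and animal cannot be told apart.

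Tetraspanins are small proteins that cross the membrane repeatedly and carry a large outer loop. They gather other membrane proteins, such as integrins, immunoglobulin-like receptors and proteases, into shared patches of the membrane, and several are used as markers of secreted vesicles. Cd81 and Cd9 are long known on astrocytes and other glia, whereas Cd37 and Cd53 belong to white blood cells and Tspan2 to myelin-forming oligodendrocytes.

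The promoters of 4 members named in the results below are shown. They are Cd9 and Cd81, the pair with the highest correlation averaged over the plates, and Tspan15, which differed between the plates. The last is Tspan32, a nearly unread neighbour of Cd81 on chromosome 7. Each line gives the 250 bases before the most upstream start in RefSeq (GRCm38.p6), read 5′ to 3′ along the gene. Capitals mark GC boxes, the letters GGGCGG on either strand. The Cd9 window lies at chr6:125494761-125495010 on the minus strand, the Cd81 window at chr7:143052500-143052749 on the plus strand, the Tspan15 window at chr10:62231219-62231468 on the minus strand and the Tspan32 window at chr7:143004796-143005045 on the plus strand.
Cd9: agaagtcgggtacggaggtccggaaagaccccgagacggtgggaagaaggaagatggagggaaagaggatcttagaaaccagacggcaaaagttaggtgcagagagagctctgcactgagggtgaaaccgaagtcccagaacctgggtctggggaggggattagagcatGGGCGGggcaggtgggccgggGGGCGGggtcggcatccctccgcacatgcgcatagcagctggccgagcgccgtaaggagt
Cd81: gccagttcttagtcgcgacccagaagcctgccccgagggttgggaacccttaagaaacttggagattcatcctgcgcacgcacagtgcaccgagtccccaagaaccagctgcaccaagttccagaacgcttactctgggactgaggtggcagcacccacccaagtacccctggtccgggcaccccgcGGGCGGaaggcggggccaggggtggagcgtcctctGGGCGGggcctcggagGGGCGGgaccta
Tspan15: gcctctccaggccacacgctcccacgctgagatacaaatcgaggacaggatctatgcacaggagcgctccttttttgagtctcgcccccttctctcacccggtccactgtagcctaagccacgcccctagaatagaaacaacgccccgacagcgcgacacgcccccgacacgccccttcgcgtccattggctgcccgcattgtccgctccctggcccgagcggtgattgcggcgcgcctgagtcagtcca
Tspan32: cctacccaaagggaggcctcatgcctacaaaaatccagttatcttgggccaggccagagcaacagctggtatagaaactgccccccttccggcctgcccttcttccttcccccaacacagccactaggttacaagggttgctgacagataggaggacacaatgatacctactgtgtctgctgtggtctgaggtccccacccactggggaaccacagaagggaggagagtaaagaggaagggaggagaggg
The Cd9 window holds 2 GC boxes and 16 CpG dinucleotides. The Cd81 window holds 3 GC boxes and 16 CpG. The Tspan15 window holds 23 CpG and no GC box, and the Tspan32 window holds 1 CpG and no GC box. A window was found for 26 of the 27 members. Among the 16 members with a mean of at least 10 CPM (a gene's reads per 1000000 counted reads of its cell) the median was 15 CpG, and 10 windows (62.5%) had a GC box. Among the other 10 members the median was 4 CpG, and 4 windows (40%) had a GC box, against a median of 6 CpG and a GC box in 33% of all 27025 promoters of this length. The letters TATAAA on either strand, which cannot overlap a GC box, stood in 1 window of the 16 (6.25%), that of Tspan12, in 0 of the other 10 and in 13% of all promoters. These matches describe the windows and were not tied to any binding, and whether they bear on level was not tested.

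The cells had 102161 to 564958 counted reads (median 282290), with medians of 391072 on plate 3 and 256247 on plate 2. They carried a median of 9 of the 10 astrocyte markers (6 to 10 per cell), with summed levels of 13151 to 53323 CPM. Gfap, a filament gene of reactive astrocytes, reached 10 CPM in 32 cells. Markers of other cell types were low but not absent: medians of the summed lists were 806 CPM for 10 oligodendrocyte markers, 9.63 CPM for 6 smooth muscle markers, 6.88 CPM for 10 microglia markers and 8.80 CPM for 6 neuron markers. Tagln, the gene whose promoter drives Cre, was detected in 5 cells. In 40 cells (10 on plate 3 and 30 on plate 2), 3 or more markers of another type were detected, and the main counts and ratios below were also taken without them.

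The family was read broadly at low level and strongly in a few members. At least 1 read was counted for 24 of the 27 members, against 16367 of the 24490 rows (66.8%). Tspan1 and Tspan8, known from epithelia, and Tspan10, known from pigmented cells, had no read. For such a gene a count of 0 in 250 cells leaves room for reads in up to 1.2% of cells. The detection level used was 10 CPM. Cd63, Cd81, Tspan3, Tspan7, Tspan15 and Tspan31 reached it in at least 50% of cells. They make 6 of the 24 members with a read, and the share over all genes with a read was 5.92%. Of the 16 members with a mean of at least 10 CPM they are 6, and 10.6% of the genes at that mean were as widely detected. Each cell had 4 to 12 members detected, with a median of 7 on plate 3 and 8 on plate 2. After every cell was thinned to 100000 reads the medians were 8 and 8. At that depth 1 read reaches 10 CPM, whereas every unthinned cell needs more than 1 read. Thinning thus equalised depth but loosened the criterion.

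**Figure D1:**
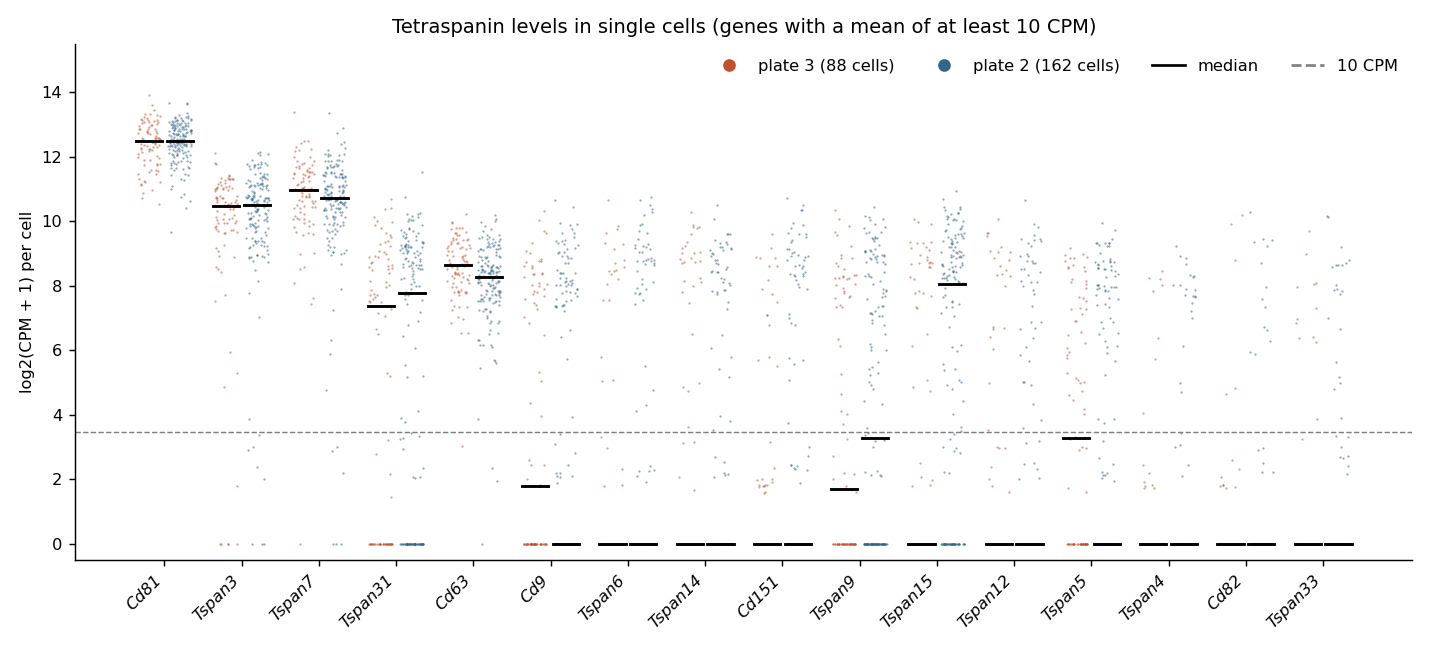
Level of each tetraspanin with a mean of at least 10 CPM in single cells, as log2(CPM + 1), for plate 3 (88 cells, left) and plate 2 (162 cells, right), in order of CPM per kb. Each point is a cell, points at 0 are cells with no read, black bars are medians and the dashed line is 10 CPM. Cd81, Tspan3, Tspan7 and Cd63 form narrow bands. Tspan31, Cd9 and the members to the right of Cd9 have many cells with no read, and their other cells spread from low values to above 100 CPM.

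Cd81, a membrane organiser often used as a vesicle marker, was the most abundant member. Its level was 1476, 5742 and 15409 CPM in the lowest, median and highest cell of plate 3, and 810, 5799 and 13003 CPM in those of plate 2. All 250 cells were therefore above the detection level, the lowest of them by a wide margin, and the plates overlapped almost fully. The mean was 6059 ± 2410 CPM (SD between cells, n = 250 cells) from 449122 reads, with an exact Poisson interval of 447809 to 450437 reads that covers counting error only. Cd81 lies on chromosome 7 from 143052739 to 143067934 (GRCm38, plus strand), and a non-coding transcript on the other strand, R74862, shares 104 exon bases with it.

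Long transcripts gather more reads, so levels were compared between members as CPM per kb of exon. On that scale Cd81 had 2105 ± 837 CPM per kb (SD between cells), which ranked 9 among the 15532 genes with reads and a known length. Tspan3, first described as a partner of claudin 11 in oligodendrocytes, followed at 357 ± 232 CPM per kb (rank 70). Tspan7, whose human counterpart is tied to X-linked intellectual disability and which steers AMPA receptor traffic in neurons, had 299 ± 216 CPM per kb (rank 81). The gap between Cd81 and Tspan3 was larger than the SD of either, while every later pair of neighbours in the order was closer than the larger of their SDs.

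The next members in the order were Tspan31 at 143 CPM per kb, Cd63 at 105 CPM per kb and Cd9 at 79.4 CPM per kb. Tspan6 had 66.8, Tspan14 had 49.7, Cd151 had 41.5, Tspan9 had 35.7 and Tspan15 had 34.6 CPM per kb. Tspan12 had 29.5, Tspan5 had 15.8, Tspan4 had 12.8, Cd82 had 10.7 and Tspan33 had 7.48 CPM per kb. The first 5 members were the same 5 when the longest transcript was taken as the length. The order was the same on both plates down to Cd9. In a median cell Cd81 made up 51.1% of the summed CPM of the family and 62.3% of its summed CPM per kb. The share ran from 11.1% to 86.4% of the summed CPM over the cells, so the family total of 3175 to 20550.3 CPM was not always mostly Cd81.

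Tspan7 and Tspan3 were the other broadly abundant members. Tspan7 had 0, 2019 and 10691 CPM in the lowest, median and highest cell of plate 3, and 0, 1705 and 10495 CPM in those of plate 2. It was detected in 243 cells. Tspan3 had 0, 1415 and 4478 CPM in the lowest, median and highest cell of plate 3, and 0, 1458 and 4519 CPM in those of plate 2, and it was detected in 236 cells. For both genes the plates overlapped across nearly the whole range. Tspan7 lies on chromosome X from 10485158 to 10596605 and Tspan3 on chromosome 9 from 56131725 to 56165477.

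Cd63, the tetraspanin of late endosomes and lysosomes and a common vesicle marker, was found in more cells than most genes of its level. It had 7.19, 399.6 and 1202 CPM in the lowest, median and highest cell of plate 3, and 0, 311 and 1169 CPM in those of plate 2. Cells above 100 CPM were the rule on both plates (85 cells of plate 3 and 145 cells of plate 2), and 1 cell of the 250 had no read. Cd63 was detected in 246 cells, while the 168 genes whose mean lay between 20% below and 25% above its 387 CPM had a median of 176 cells. Among those genes the metallothionein genes Mt2 and Mt3 were found in as many cells (these names were chosen after the values were seen). Its squared coefficient of variation (CV, the SD over the mean) was 0.277 times the trend of genes of like level on plate 3 and 0.294 times on plate 2. On plate 3, 0.768% of the 6381 genes with at least 20 CPM on both plates had a lower ratio, and on plate 2, 1.30% did. Under other trends, depths and scalings, and without doubtful or highest cells, the ratio ranged from 0.254 to 0.313 on plate 3 and from 0.276 to 0.298 on plate 2. Cd63 lies on chromosome 10 from 128900989 to 128912822. A processed copy, Cd63-ps, matches it at 98.0% over 858 bases, has no row of its own, and how reads that match both were counted is not given, so the part of such reads in these values was not tested.

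**Figure D2:**
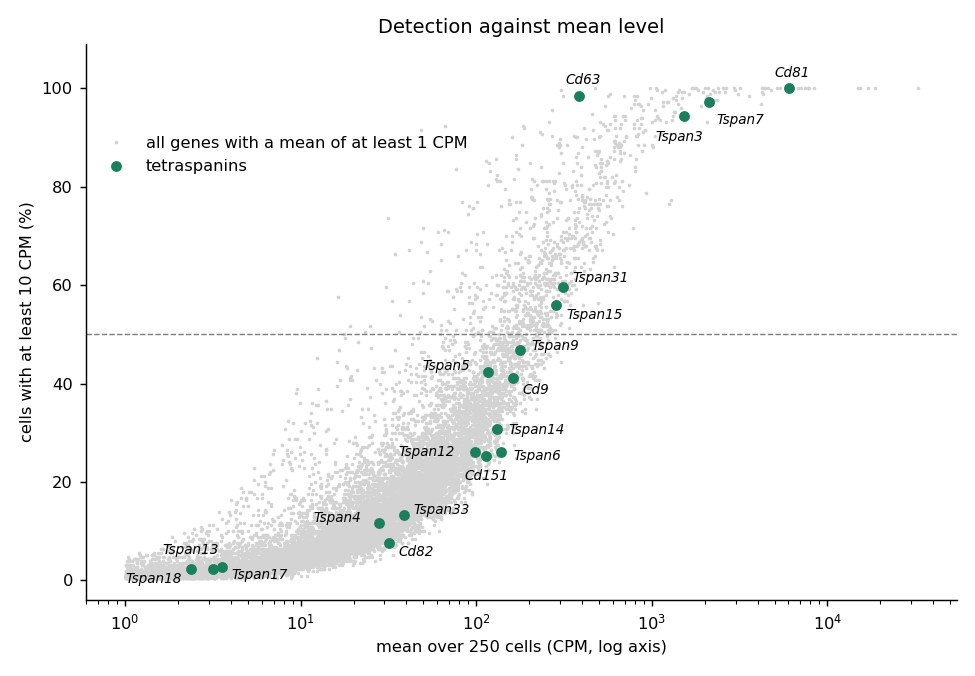
Share of the 250 cells with at least 10 CPM against the mean level (CPM, log axis) for every gene with a mean of at least 1 CPM (grey) and for the tetraspanins (green), with the dashed line at 50% of cells. Cd63, at 387 CPM and 98.4% of cells, stands at the upper edge of the grey cloud, whereas Cd82, Tspan6 and Cd151 stand near its lower edge.

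Several late endosome and lysosome genes, the usual company of Cd63, were widely detected. Cd63 itself was detected in 246 of the 250 cells, so sharing cells with it shows no link. Of 8 late endosome and lysosome genes 5 were found in at least 50% of cells. The share over all genes with a read was 5.92%, and over genes with a mean of at least 10 CPM 10.6%. Ctsd, a lysosomal protease, had a mean of 1338 CPM and was detected in 238 cells. Lamp1 had 1238 CPM in 243 cells and Lamp2, like it a lysosomal membrane protein, had 652 CPM in 200 cells. The small GTPase gene Rab7 (167 CPM, 154 cells) and the adaptor gene Ap3d1 (217 CPM, 153 cells) completed the 5. Rab27a, a GTPase of vesicle release, had no read. Of 9 genes of vesicle formation and sorting none was detected in 50% of the cells, and Vps4a was the widest with 80 cells. A count of none in 9 is close to what the share over all genes gives. Cd81, Cd63 and Cd9, the usual vesicle markers, were detected together in 101 of the 250 cells, 38 on plate 3 and 63 on plate 2. With Cd81 detected in all 250 cells and Cd63 in 246, this count follows from the 103 cells with Cd9 detected.

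Cd9, an organiser of integrins and immunoglobulin-like partners that is needed on mouse eggs for sperm fusion, was split between cells. It had 0, 2.48 and 1286 CPM in the lowest, median and highest cell of plate 3, and 0, 0 and 1619 CPM in those of plate 2. No read was found in 43 cells (48.9%) of plate 3 and 88 cells (54.3%) of plate 2, and few cells stood between no read and 100 CPM. Over both plates 131 cells had no read, 16 had a read but under 10 CPM, 9 had 10 to under 100 CPM, 67 had 100 to under 500 CPM and 27 had 500 CPM or more. The mean was 162 ± 271 CPM (SD, n = 250 cells), and Cd9 was detected in 103 cells (41.2%, exact binomial interval 35.0 to 47.6%). The CV of Cd9 was 1.67, that of Cd81 0.398. Each was close to the trend for its own level: the squared CV of Cd9 was 0.922 times the trend on plate 3 and 1.08 times on plate 2, and that of Cd81 was 1.09 times on plate 3 and 0.760 times on plate 2. Cd9 was detected in 103 cells where the 567 genes of like mean had a median of 115. Cd9 lies on chromosome 6 from 125460266 to 125494791 (minus strand), and 218 of its exon bases are shared with Gm26728 on the other strand.

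Cd82, Tspan6 and Tspan7 were among the members above the trend on both plates, and Tspan5, like Cd63, was among those below it. Cd82, known in human tumours as a metastasis suppressor, was detected in 5 cells of plate 3 and 14 cells of plate 2, with a highest cell of 1169 CPM on plate 3 and 1253 CPM on plate 2. Its squared CV was 2.84 times the trend on plate 3 and 1.80 times on plate 2. On plate 3, 1 cell held 44.0% of its total CPM, so that value rests largely on 1 cell, and its mean was too low for the trend once the highest cell of each plate was removed. For Tspan7 the ratio was 1.49 on plate 3 and 1.51 on plate 2, and with each plate's highest cell removed it was 1.11 on plate 3 and 1.26 on plate 2. For Tspan5 it was 0.568 on plate 3 and 0.769 on plate 2. Tspan6, an X-linked member, had 1.48 on plate 3 and 1.61 on plate 2, and Tspan33 had 1.23 on plate 3 and 1.57 on plate 2.

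**Figure D3:**
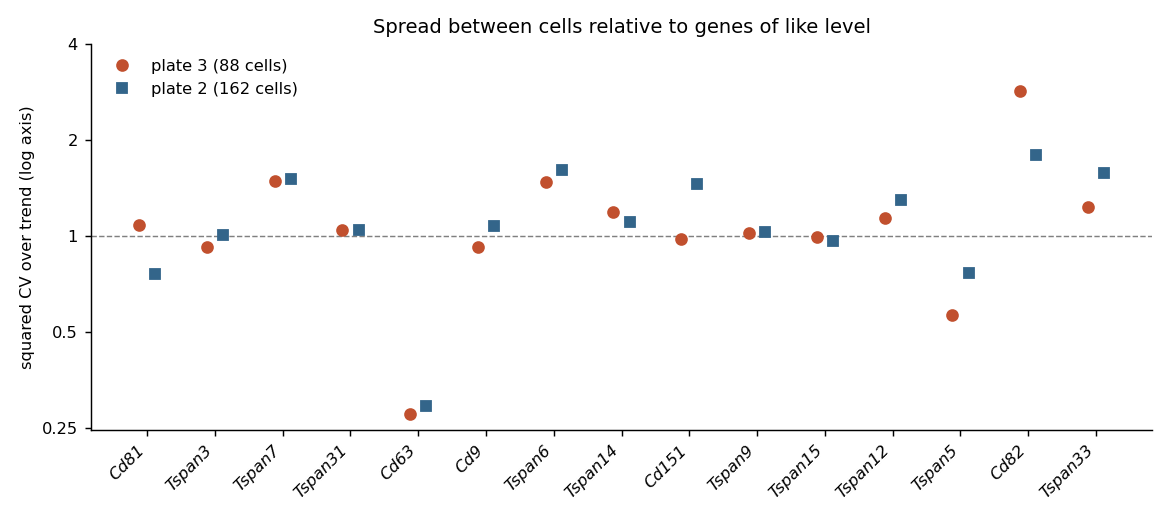
Squared CV of each tetraspanin with at least 20 CPM on both plates, divided by the loess trend of all genes at its mean level (log axis), for plate 3 (circles, 88 cells) and plate 2 (squares, 162 cells); the dashed line at 1 is the trend. Cd63 lies lowest, at 0.277 and 0.294, Cd82 highest, at 2.84 and 1.80, and the others between 0.568 and 1.61.

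Tspan15 belongs to the TspanC8 group, which escorts the membrane protease ADAM10 out of the endoplasmic reticulum and steers it to its substrates. It had 0, 0 and 1084 CPM in the lowest, median and highest cell of plate 3, and 0, 266 and 1962 CPM in those of plate 2. The mean was 156 ± 262 CPM on plate 3 and 353 ± 411 CPM on plate 2 (SD between cells, n = 88 and 162 cells). The log2 ratio was -1.18. The difference of the means was smaller than the SD between cells, and it lay mainly in how many cells had the transcript. Tspan15 was detected in 33 cells of plate 3 (37.5%, exact binomial interval 27.4 to 48.5%) and in 107 cells of plate 2 (66.0%, interval 58.2 to 73.3%). These intervals treat cells as independent and cover counting error only, so they do not test the plates against each other. No read was found in 50 cells of plate 3 and 47 cells of plate 2. Among the cells that had it the medians were 414 CPM on plate 3 and 461 CPM on plate 2. Plate 3 was sequenced more deeply. With each cell thinned to 100000 reads, where 1 read counts as detection, Tspan15 was detected in 37.5% of the cells of plate 3 and 69.8% of those of plate 2. The summed reads were 5247 on plate 3 and 14147 on plate 2. Tspan15 lies on chromosome 10 from 62185396 to 62231251 (minus strand).

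Cd151, the member most tightly bound to laminin-binding integrins, was the other gene past the mark. It had 0, 0 and 787 CPM in the lowest, median and highest cell of plate 3, and 0, 0 and 1701 CPM in those of plate 2. Cells at 500 CPM or more made up 2.27% of plate 3 and 10.5% of plate 2, and cells with a read but under 10 CPM made up 15.9% of plate 3 and 5.56% of plate 2. The mean was 57.5 ± 148 CPM on plate 3 and 144 ± 307 CPM on plate 2. The log2 ratio was -1.33. It was detected in 19.3% of the cells of plate 3 and 28.4% of those of plate 2.

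Among the 16 members with a mean of at least 10 CPM, 0 were 2-fold or more higher on plate 3 than on plate 2 (5.62% of the 9181 genes at that level were), and 2 were 2-fold or more lower (8.96% of genes). The members called were Tspan15 and Cd151, and with 16 members these counts are not set apart from those of all genes. The median log2 ratio of plate 3 over plate 2 was -0.20 for the 16 members and -0.03 for all genes at that level, and 4 members were higher and 12 (75%) lower on plate 3, against 4372 genes higher and 4809 (52.4%) lower. The largest of the 4 positive log2 ratios was that of Cd63 at 0.34, with means of 449 ± 246 CPM on plate 3 and 354 ± 227 CPM on plate 2, less than the SD between cells. Tspan14 followed at 0.34, with means of 152 CPM on plate 3 and 120.4 CPM on plate 2. Tspan4, a gene of migrasomes, was lower on plate 3 at a log2 ratio of -0.85 and was 2-fold lower when summed reads were compared, when the highest cell of each plate was left out (-1.12 and -1.02) or when cells with markers of another type were left out (-1.25). Leaving out those cells gave 4 members 2-fold lower, Tspan15, Cd151, Tspan4 and Tspan6, with -1.21 for Tspan15.

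The summed markers of other cell types also differed between the plates. Summed oligodendrocyte markers ranged from 0 to 2620 CPM (median 583) on plate 3 and from 0 to 4075 CPM (median 868) on plate 2. Of the 10 genes, 8 had a lower mean on plate 3, with Mog and Ermn at 0 reads there, and 2, Mobp and Ugt8a, had a higher one. Of the 10, 3 or more were detected in 6 cells of plate 3 and 28 cells of plate 2. Summed microglia markers ranged from 0 to 1756 CPM (median 8.95) on plate 3 and from 0 to 1523 CPM (median 6.52) on plate 2. Of these 10 genes, 6 had a higher mean on plate 3 and 4 a lower one, among them Trem2 with 0 reads there. Summed astrocyte markers had medians of 29733 CPM on plate 3 and 30426 CPM on plate 2. As given above, the Tspan15 log2 ratio was -1.21 without the cells that carried 3 or more markers of another type. Cells with fewer such markers stayed in, and the part of these markers in the ratio was not tested.

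**Figure D4:**
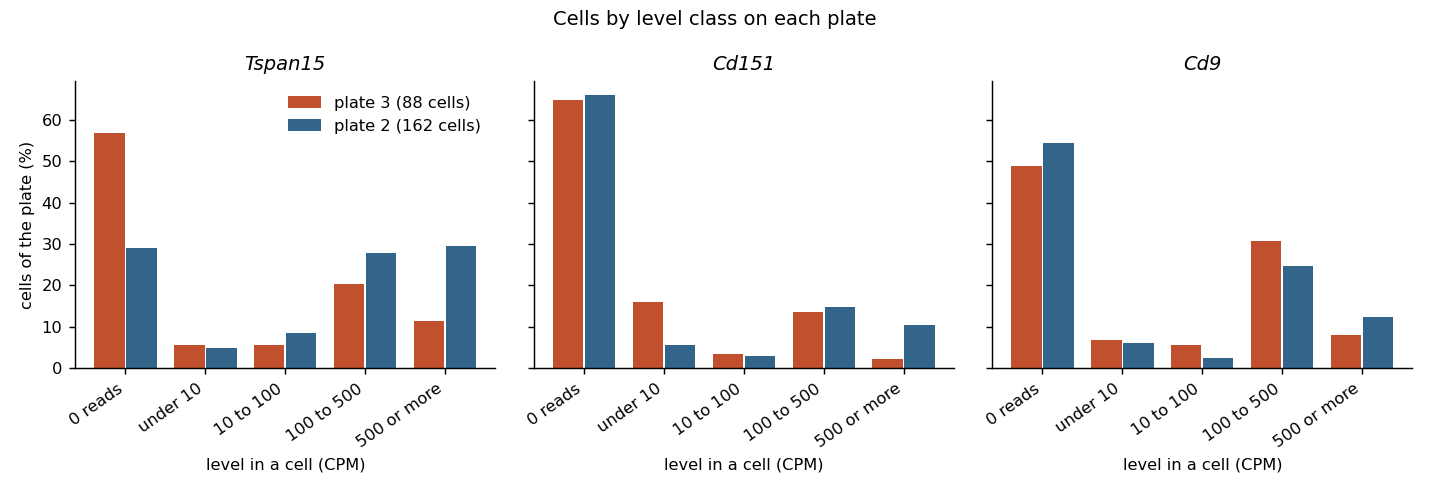
Share of the cells of plate 3 (88 cells, left bars) and plate 2 (162 cells, right bars) in classes of level for Tspan15, Cd151 and Cd9, from no read to 500 CPM or more. For Tspan15, 56.8% of the cells of plate 3 and 29.0% of those of plate 2 had no read, while for Cd9 the classes were of similar height on both plates.

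Most cells had some member of the TspanC8 group detected. At least 1 of its 6 members was detected in 209 of the 250 cells (83.6%, exact binomial interval 78.4 to 88.0%). This count depends on how widely each member was detected, and Tspan15 alone was detected in 140 cells. It was not set against other sets of 6 genes, so it sets the group apart from no other. In 99 cells 1 member was detected, in 72 cells 2, in 32 cells 3 and in 6 cells 4, and 41 cells had none. Summed over the group, the level was 447 ± 399 CPM on plate 3 and 643 ± 555 CPM on plate 2. Tspan5 and Tspan14, which are known to favour Notch cleavage, had 116 ± 191 CPM (106 cells) and 132 ± 257 CPM (77 cells). Tspan33 had 38.9 ± 143 CPM in 33 cells, Tspan17 was detected in 7 cells, and Tspan10 had no read. In cells of plate 3, Tspan14 and Tspan15 had a Spearman rho of -0.30, with 6 cells detecting both, and in cells of plate 2 the rho was 0.09, with 34 cells. The sign therefore differed between the plates. Tspan14 with Tspan15 was named outside the rule for pairs, with its values known.

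Adam10 itself had a mean of 113 CPM and was detected in 105 cells. Of Adam10 and 5 of its substrates, 4 were found in at least 50% of cells. The share was 5.92% over all genes with a read and 10.6% over genes with a mean of at least 10 CPM. Prnp, the prion protein gene, had 4766 CPM in 249 cells. The receptor genes Notch1 and Notch2 were detected in 186 cells (235 CPM) and 195 cells (206 CPM), and Cdh2, the N-cadherin gene and a known substrate of ADAM10 with Tspan15, in 150 cells (161 CPM). App, the amyloid precursor gene, was detected in 54 cells.

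The laminin-binding integrins, partners of Cd151, were partly read. Itga6 was detected in 136 cells (195 CPM) and Itga7 in 134 cells (145 CPM). The shared beta chain gene Itgb1 was detected in 76 cells, Itga3 in 9 and Itgb4 in 1, so 2 of the 5 reached 50% of the cells. None of the 3 immunoglobulin partners of Cd9 and Cd81 did, and Igsf8 was the widest with 67 cells. Tspan12, which joins Frizzled 4 in the receptor for Norrin, had 97.7 ± 229 CPM and was detected in 26.1% of the cells of plate 3 and 25.9% of those of plate 2. Ndp, the gene of Norrin itself, was detected in 58 cells (113 CPM) and the receptor gene Fzd4 in 19. Of the 4 genes of that complex none reached 50% of the cells. Over all genes with a read 5.92% did, so a count of none in lists this short sets no genes apart.

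The remaining members with a mean of at least 10 CPM were detected in a minority of cells or share sequence with another gene. Tspan31 had 313 ± 397 CPM in 149 cells, with 0, 166 and 1657 CPM in the lowest, median and highest cell of plate 3 and 0, 221 and 2987 CPM in those of plate 2. Its exons overlap 641 bases of Cdk4 on the opposite strand, and whether the counting used strand is not given, so reads of both genes cannot be told apart there. Cdk4 had 82.8 CPM, was detected in 72 cells, and had a rho with Tspan31 of -0.04 on both plates. Tspan9, best known from platelets, had 178 ± 287 CPM in 117 cells. Tspan6 had 138 ± 310.2 CPM in 65 cells, and Tspan4, which overlaps 292 exon bases of Chid1, had 27.8 ± 90.0 CPM in 29 cells.

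Members of other lineages were close to unread. The white blood cell genes Cd37, Cd53 and Tspan32 had 1, 20 and 48 reads over all cells, and any of them was detected in 4 cells. Cd53 had reads in 9 cells, of which 4 had a detected microglia marker and 0 had 3 of them. Tspan2, the oligodendrocyte member, had 41 reads in 11 cells, of which 10 had a detected oligodendrocyte marker, as did 229 of all 250 cells. Tspan11, Tspan13, Tspan17 and Tspan18 had 55 to 288 reads and were detected in 2 to 7 cells each, and sequence repeats of Tspan18 match several other genes. Tspan32 lies upstream of Cd81 on the same strand of chromosome 7 (143005046 to 143019644) and had reads in 3 cells, where Cd81 had reads in all 250. Of 4 further genes with the same protein fold, Upk1a, Upk1b, Prph2 and Rom1, none reached 50% of the cells and Rom1 was detected in 12. Over all genes with a read 5.92% reached 50% of the cells.

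Co-variation within the family was weak. Over the 16 members with at least 10 CPM on both plates, 6 of 120 pairs (5%) had a Spearman rho of at least 0.1 on both plates, against 2.36% of 35032635 pairs of all 8371 genes at that level. A rho of at most -0.1 on both plates was seen for 1 pair (0.833%), against 1.48% of all pairs. The mean rho was 0.0157 over the member pairs and 0.00633 over all pairs, both near 0. All pairs share the libraries, their depth and the 250 cells, and cells are not independent animals.

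Cd9 and Cd81 were the highest pair by mean rho, with a rho of 0.15 over the 88 cells of plate 3 and 0.41 over the 162 cells of plate 2. On plate 3 alone several pairs were higher, among them Cd9 with Tspan6 at 0.31. The relation of Cd9 with Cd81 was weak on plate 3 and moderate on plate 2, and the difference between the plates was not tested. Given total reads and genes detected it was 0.10 on plate 3 and 0.39 on plate 2. Without the 40 cells with markers of another type it was 0.09 on plate 3 and 0.37 on plate 2, so on plate 3 it then fell under the level used for counting pairs. The summed oligodendrocyte markers had a rho with Cd9 of 0.26 on plate 3 and 0.09 on plate 2, and with Cd81 of 0.28 on plate 3 and 0.19 on plate 2.

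Cd9 with Tspan6 had 0.31 on plate 3 and 0.16 on plate 2, and Tspan7 with Tspan12 had 0.25 on plate 3 and 0.16 on plate 2. Cd82 with Tspan9 had 0.21 on plate 3 and 0.14 on plate 2 but rests on 3 and 11 cells that detected both. Tspan7 with Tspan9 had 0.18 on plate 3 and 0.11 on plate 2. The lowest pair by mean rho was Cd9 with Tspan7, at -0.16 on plate 3 and -0.25 on plate 2. Next were Tspan4 with Tspan9, at -0.25 and -0.06 in the same order, and Tspan9 with Tspan14, at -0.20 and -0.10. Apart from Cd9 with Cd81 on plate 2, these relations were weak.

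**Figure D5:**
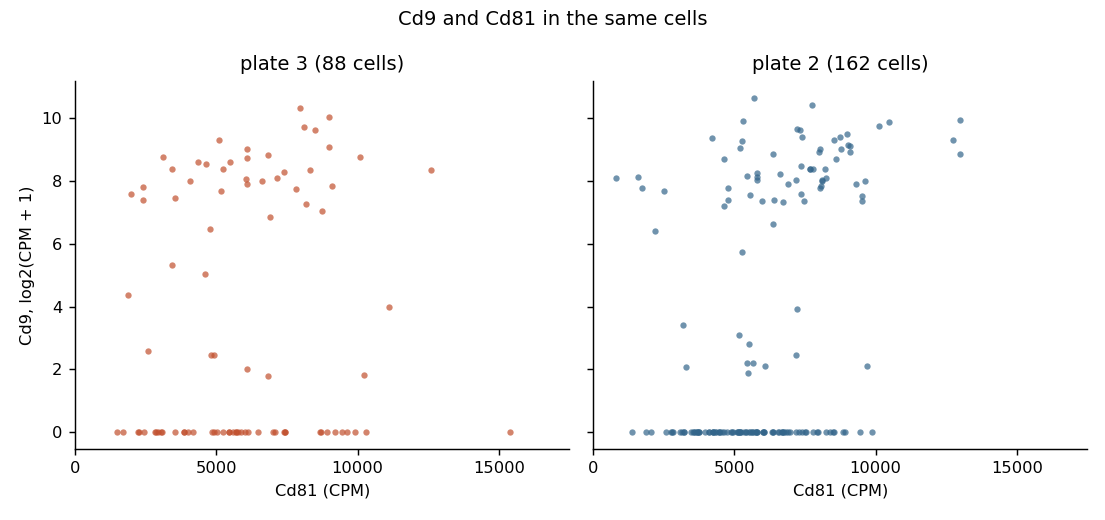
Cd9, as log2(CPM + 1), against Cd81 (CPM) in each cell of plate 3 (left, 88 cells) and plate 2 (right, 162 cells). Cells without a Cd9 read form the row at 0 in both panels; Spearman rho was 0.15 on plate 3 and 0.41 on plate 2.

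The genes most like Cd9, ranked among 6381 genes by the lower of their rhos on the plates, were Nnat, Sparc, Agt, Zfp36l1 and Sparcl1. Nnat, an imprinted gene for a small membrane protein, had a rho of 0.47 on plate 3 and 0.55 on plate 2. Sparc, a secreted matrix protein gene, had 0.36 on plate 3 and 0.42 on plate 2. Agt, the angiotensinogen gene, had 0.38 on plate 3 and 0.34 on plate 2. Zfp36l1 had 0.32 on each plate, and Sparcl1 had 0.31 on plate 3 and 0.34 on plate 2. All of these exceeded the rho of any fellow tetraspanin on the lower plate, since Tspan6 ranked 28 and Cd81 ranked 41. At the other end, Htra1, a secreted protease gene chosen after the values were seen, had -0.30 on plate 3 and -0.47 on plate 2, and Tspan7 ranked 6288.

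For Cd81 the 5 genes were Agt, Itih3, Apoe, Cst3 and Nkx6-2. Agt had a rho of 0.42 on plate 3 and 0.46 on plate 2, and Itih3 had 0.34 on plate 3 and 0.44 on plate 2. Apoe, the lipid carrier gene, had 0.46 on plate 3 and 0.34 on plate 2. Cst3 had 0.31 on plate 3 and 0.35 on plate 2, and the homeobox gene Nkx6-2 had 0.31 on plate 3 and 0.33 on plate 2. Cd9 ranked 60 for Cd81.

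For Tspan15 the leading rhos were lower. Agt had 0.25 on plate 3 and 0.21 on plate 2, and Sec11a, a signal peptidase subunit gene, had 0.25 on plate 3 and 0.20 on plate 2. Irak1, Abcf3 and Notch3 followed, with Notch3 at 0.21 on plate 3 and 0.19 on plate 2. Agt stood among the 5 for each of Cd9, Cd81 and Tspan15. The summed astrocyte markers had a rho with Tspan15 of 0.32 on plate 3 and 0.20 on plate 2, and their part in the difference between the plates was not tested.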

How the data were processed

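The 250 cells were sorted into wells and made into Smart-seq2 libraries, per the labels' protocols. The authors deposited whole-number read counts per gene and cell, which were not normalized. STAR 2.4.2a and mm10 were used per the submitters' processing notes. The sources used here do not give the counting tool, its use of strand, the annotation, the treatment of reads with several matches or the filter on cells. The deposited normalized table was not used.

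All 250 columns were matched by name, and no cell was removed or clustered. No doublet caller was run on these sorted wells. CPM is the count over the cell's total, times 1000000. Shares have exact (Clopper-Pearson) and read sums exact Poisson intervals at 95%, which cover counting error only. Cells are not independent animals, and reads without molecular identifiers are not independent molecules. Named members have a mean of at least 10 CPM. Named pairs are the 5 highest and 3 lowest by mean rho, and Tspan14 with Tspan15 was added outside that rule. Like genes are the 5 with the highest lower-plate rho at a mean of 20 CPM or more. Lengths, overlaps and positions come from GENCODE M21 (GRCm38), near copies from blastn (95% identity over 200 bases) and promoters from RefSeq. The spread trend is a loess (span 0.1, statsmodels 0.14.6) of log squared CV on log mean, fitted per plate. Alternatives were thinning to 100000 reads, TMMwsp scaling (edgeR 4.0.16), other thresholds and leaving out cells. The scripts were tested on simulated counts. Members and lists were chosen with earlier results of these data known.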

Additional observations from a re-analysis of the deposited data

How the results depend on the processing

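Of 118 recomputed values, 110 kept their direction and stayed within the spread or factor used to compare them, 8 moved and 0 reversed. The share of all genes detected in at least 50% of cells moved from 5.92% to 7.66% when only genes with a mean of at least 1 CPM were taken. Without a filter on low values, 3 members were 2-fold higher and 6 were 2-fold lower on plate 3, of the 23 with reads on both plates. Leaving out cells with 3 or more markers of another type gave 4 members lower. The CV of Cd9 was 1.61 without the highest cell of each plate. Pearson correlation of log2(CPM + 1) gave 10 of 120 pairs of at least 0.1 on both plates (2.41% of all gene pairs under it), and thinning gave 3 pairs of at most -0.1 (1.51% of all gene pairs). The Cd9 with Tspan7 value on plate 3 was -0.02 by Pearson correlation. For these the cause was not tested. The Tspan15 log2 ratio ranged from -1.24 to -1.10. The alternatives for Cd63, Cd82 and Tspan7 and the marker-free Cd9 with Cd81 value were chosen after seeing the data. No paired analysis was possible because the cells form 1 group. There are no known animal replicates, and no p-value or interval between animals can be given.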
